A study of Mus musculus with 20 samples.

Results

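The RNAs described are 8 long noncoding RNAs (lncRNAs) of the mouse brain, Malat1, Neat1, Meg3, Rian, Mirg, Miat, Snhg11 and Kcnq1ot1, chosen by name as abundant nuclear or imprinted transcripts. All 8 were found among the 55291 gene symbols of the count table, and all 8 passed the filter on low counts, as did 21022 genes in the fit of 3 genotypes. RNA came from the left hemi-brain of C57bl/6 mice at 18 MO that are all labelled female, 1 mouse per library, and poly(A) RNA was sequenced with a stranded kit as single reads of 50 bases. In these targeted-replacement mice both copies of murine Apoe are exchanged for a human APOE allele, which the murine promoter drives. The 20 libraries fell into 4 groups of 5, namely APOE2, APOE4D, APOE4 and APOE3. APOE4D is the name in the labels of a second group whose genotype is also given as APOE4, and no source used here says what the D stands for. A hemi-brain mixes all cell types, so fewer cells of a type and less RNA per cell cannot be told apart.

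Malat1 and Neat1 are neighbouring genes whose RNAs stay in the nucleus. Malat1 RNA gathers in nuclear speckles, where splicing factors are stored, and Neat1 RNA is the scaffold of paraspeckles. Meg3, Rian and Mirg lie one after another in the imprinted Dlk1-Dio3 domain and are transcribed from the maternal chromosome, with small nucleolar RNAs (snoRNAs) and microRNAs (miRNAs) within Rian and miRNAs within Mirg. Kcnq1ot1 is transcribed from the paternal chromosome antisense to Kcnq1 and silences neighbouring genes in cis. Miat, also called Gomafu, is a nuclear RNA of neurons, and Snhg11 is a host gene of snoRNAs.

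Total counts were 32404258 to 51960932 reads per library, and the number of reads on a single lncRNA was 805 to 228355 per library. Mitochondrially encoded genes took 5.90% to 7.40% of counts. Markers of neurons (16 genes), astrocytes (12), oligodendrocytes (14) and microglia (12) were all detected, and the neuronal list summed to 14335 to 15128 CPM (counts scaled to an equal library total). The library of the APOE3 mouse F61N had 48 reads of Xist, the lncRNA that coats the inactive X chromosome of female cells, against 12151 to 24959 in the other 19. This goes against the sex in its label. Fold changes and ratios of the lncRNAs and numbers of genes called are also given without it where they change. Of the mice, 7 carried IDs that begin with FH (2 APOE2, 3 APOE4D, 2 APOE4 and 0 APOE3), and results are likewise given without them. Nothing in the labels calls these IDs a batch.

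Malat1 lies at chr19:5795690-5802672 of GRCm38, and Neat1 at chr19:5824708-5845480. Meg3 lies at chr12:109540996-109571729, Rian at chr12:109603945-109661716 and Mirg at chr12:109734981-109749458. Miat lies at chr5:112213228-112228948, Snhg11 at chr2:158375713-158386474 and Kcnq1ot1 at chr7:143213111-143296547. The span of Kcnq1ot1 overlaps Kcnq1, and that of Meg3 and Rian overlaps Rtl1, on which reads could not be told apart if strand was not used in counting. The libraries were made from poly(A) RNA, and the Malat1 RNA ends in a stretch of A that is encoded in the genome and not in an added tail. The longest run of A in its 7886-base transcript (GENCODE vM39) had 12 bases, at 7576 to 7587, and stood just before the tRNA-like Mascrna. It is shown because it is the feature by which a poly(A) selection can hold this RNA, with the run in capitals.
Malat1 transcript, bases 7516 to 7607: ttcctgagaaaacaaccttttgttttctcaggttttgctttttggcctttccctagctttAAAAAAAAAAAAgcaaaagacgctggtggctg

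Within Mirg, RefSeq (GRCm38.p6) placed 10 miRNA genes with 19 mature miRNAs, against 3 with 6 in Rian and 2 with 3 in Meg3. These 28 mature miRNAs had 27 different seeds, the bases 2 to 8 that pair with targets. The seed GGUUGCC was held by both miR-453 and miR-496a-5p, and both lie in Mirg. A selection is shown with seeds in capitals, 6 from Mirg, the member of the cluster that differed between groups, and 1 each from Rian (miR-370-3p) and Meg3 (miR-770-5p). Mature miRNAs are too short for these libraries and were not measured.
mmu-miR-453: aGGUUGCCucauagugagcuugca
mmu-miR-496a-5p: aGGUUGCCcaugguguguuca
mmu-miR-154-5p: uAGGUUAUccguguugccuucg
mmu-miR-377-3p: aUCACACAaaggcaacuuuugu
mmu-miR-410-3p: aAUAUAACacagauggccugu
mmu-miR-541-5p: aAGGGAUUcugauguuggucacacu
mmu-miR-370-3p: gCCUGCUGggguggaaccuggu
mmu-miR-770-5p: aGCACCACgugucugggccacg

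RefSeq promoter windows (GRCm38.p6, 250 bases before to 50 after the start) were matched for 7 of the 8 genes. They were searched on both strands for the cAMP response element TGACGTCA, for its shorter core TGACG (which the full element contains), for the CCAAT box, for the TATA box as TATAAA and for the ZFP57 hexamer TGCCGC. Of 32851 windows of this length, 1.79% held TGACGTCA and 20.81% the shorter core, 37.41% held the CCAAT box, 13.62% the TATA box and 11.61% the ZFP57 hexamer. Meg3 had 2 windows, 1 of them with none of these letters, and the other had TGACGTCA 57 bases before the start, CCAAT at 100 bases, TGCCGC at 190 bases, and TATAAA at 29 and 25 bases on opposite strands. The window of Snhg11 had TGCCGC at 9 bases and none of the other letters. The Meg3 window with matches and that of Snhg11 are shown because the levels of these genes moved together over libraries, and those of Malat1 and Kcnq1ot1 because their levels differed between groups. Malat1 had TGACG at 154, 45 and 3 bases, and Kcnq1ot1 had CCAAT at 188, 148 and 67 bases and TGACG at 42 bases. Capitals mark these matches, which describe letters and not binding.
Meg3 promoter, chr12:109540746-109541045, plus strand: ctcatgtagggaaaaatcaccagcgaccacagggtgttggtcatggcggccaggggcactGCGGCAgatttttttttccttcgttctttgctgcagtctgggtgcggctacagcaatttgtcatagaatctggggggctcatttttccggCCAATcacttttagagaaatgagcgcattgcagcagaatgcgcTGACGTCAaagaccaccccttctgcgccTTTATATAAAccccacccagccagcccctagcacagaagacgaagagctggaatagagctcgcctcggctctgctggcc
Snhg11 promoter, chr2:158375463-158375762, plus strand: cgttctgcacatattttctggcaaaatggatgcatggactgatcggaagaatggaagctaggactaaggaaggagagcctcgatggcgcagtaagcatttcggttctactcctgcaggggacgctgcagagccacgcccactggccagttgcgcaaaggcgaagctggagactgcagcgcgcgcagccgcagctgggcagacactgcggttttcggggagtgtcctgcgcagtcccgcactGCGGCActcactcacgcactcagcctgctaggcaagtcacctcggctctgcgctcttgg
Malat1 promoter, chr19:5802623-5802922, minus strand: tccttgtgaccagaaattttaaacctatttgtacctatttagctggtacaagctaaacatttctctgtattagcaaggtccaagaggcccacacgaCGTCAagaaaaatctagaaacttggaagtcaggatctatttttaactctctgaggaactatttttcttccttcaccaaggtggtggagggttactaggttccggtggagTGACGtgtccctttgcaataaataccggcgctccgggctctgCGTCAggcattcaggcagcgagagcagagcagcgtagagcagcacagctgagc
Kcnq1ot1 promoter, chr7:143296498-143296797, minus strand: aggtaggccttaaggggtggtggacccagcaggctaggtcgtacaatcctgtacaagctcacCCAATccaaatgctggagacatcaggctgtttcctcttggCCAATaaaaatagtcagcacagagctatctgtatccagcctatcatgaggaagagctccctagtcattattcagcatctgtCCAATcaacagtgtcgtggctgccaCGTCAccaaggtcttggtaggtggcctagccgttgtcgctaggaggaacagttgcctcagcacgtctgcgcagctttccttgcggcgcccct

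Together the 8 lncRNAs took 0.770% to 0.938% of the counts of a library. The sum averaged 0.880% ± 0.034 in APOE2, 0.838% ± 0.030 in APOE4D, 0.861% ± 0.043 in APOE4 and 0.830% ± 0.036 in APOE3 (SD, n = 5 each), and the ranges of the 4 groups overlapped. Meg3 made up 51.3% of the sum and Snhg11 25.9% on average. By mean CPM, Meg3 ranked 8 and Snhg11 18 among all gene symbols, Rian 128, Miat 214, Neat1 315 and Malat1 379, whereas Mirg ranked 5782 and Kcnq1ot1 7449. Per kb of exonic sequence (all isoforms joined), mean levels were 259 CPM per kb for Snhg11 and 227 for Meg3, then 45.4 for Miat, 43.4 for Malat1, 21.0 for Rian, 17.2 for Neat1, 4.01 for Mirg and 0.273 for Kcnq1ot1. The order depends on the isoforms counted, since the canonical transcript of Meg3 alone would give it 2641 CPM per kb. Over the 20 libraries Malat1 varied most, with a coefficient of variation of 17.1%, followed by Mirg (12.05%), Kcnq1ot1 (8.79%), Neat1 (7.38%), Snhg11 (6.23%), Rian (6.19%), Miat (5.67%) and Meg3 (4.88%). These values hold the differences between groups too. Within a group the coefficient of variation was 8.96% to 17.6% for Malat1, 5.40% to 10.6% for Mirg and 3.96% to 10.5% for Neat1.

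**Figure D1:**
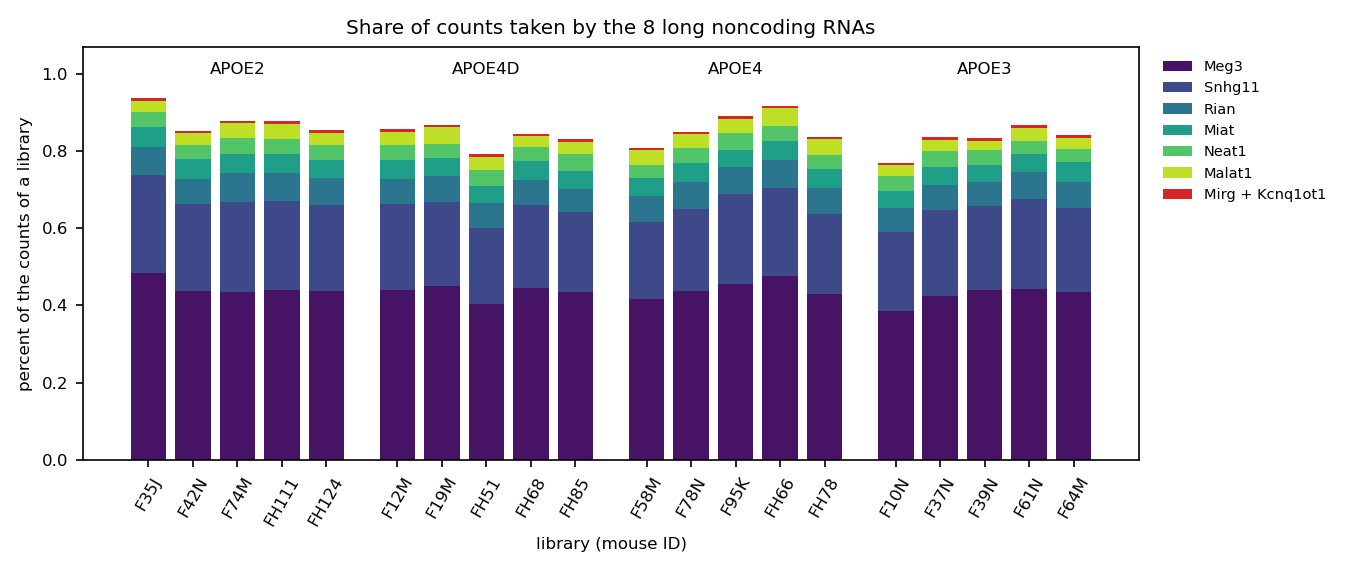
Percent of the counts of each library taken by each lncRNA, stacked, for the 20 libraries in their 4 groups. Meg3 and Snhg11 fill most of every bar, and the tops of the bars lie between 0.770% (F10N, APOE3) and 0.938% (F35J, APOE2).

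Between genotypes, the lncRNAs did not move as 1 group. In APOE4 against APOE3 mice, Malat1 and Kcnq1ot1 were higher and Mirg was lower (edgeR, adjusted over all genes), while Neat1, Meg3, Rian, Miat and Snhg11 did not pass. Over all genes, 10.8% were higher and 10.2% lower in this comparison, so 2 of 8 higher and 1 of 8 lower stands against a wide background. Without F61N the background was wider, with 3206 genes higher and 2533 lower, against 2273 higher and 2149 lower with it. CPM of the groups did not overlap for 1 of the 8, Malat1, and for 11.7% of all genes. The median log2 fold change was 0.06 over the 8 and -0.01 over all genes tested.

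In APOE2 against APOE3 mice, 0 of the 8 passed by edgeR, 4 had an unadjusted p under 0.05 (Malat1, Rian, Miat and Snhg11, each with a positive fold change), and DESeq2 called 1 (Malat1) and limma-voom 0. At an unadjusted p under 0.05 were 19.8% of all genes. After adjustment, of all genes 1.84% were higher and 3.05% lower, and CPM did not overlap for 4.36% of genes and for 0 of the 8. Without F61N the balance over all genes turned, with 1423 higher and 1110 lower in APOE2, against 387 higher and 642 lower with it. In APOE2 against APOE4 mice, 1 of the 8 was higher, Mirg, and 0 were lower, where 3.29% of all genes were higher and 2.6% lower. The groups did not overlap for 2 of the 8, Mirg and Kcnq1ot1, and for 7.81% of genes. In APOE4D against APOE4 mice, 0 of the 8 were called by edgeR, DESeq2 or limma-voom, 2 had an unadjusted p under 0.05 (Rian and Kcnq1ot1, both with negative fold changes), and 0% of all genes passed by edgeR, where 2293 (10.9%) had an unadjusted p under 0.05. For all genes DESeq2 called 34, limma-voom 0, edgeR with no filter 10 and edgeR on only these groups 210 (86 higher and 124 lower). In APOE4D against APOE3 mice, Mirg was lower and 0 were higher, where 3.92% of all genes were higher and 4.49% lower. Without F61N this balance turned as well, with 1801 genes higher and 1537 lower in APOE4D, against 825 higher and 944 lower with it. The comparisons share control libraries and are not independent of each other.

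**Figure D2:**
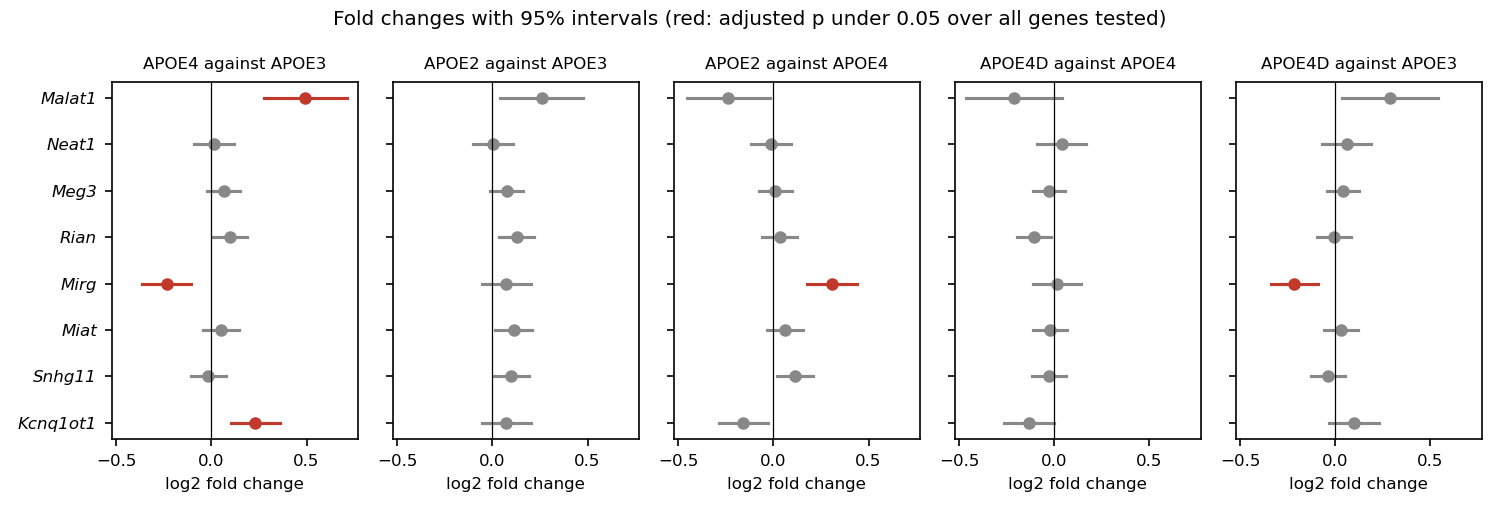
Log2 fold changes of the 8 lncRNAs in 5 comparisons (points) with 95% intervals (lines), red where the adjusted p is under 0.05. Red points stand for Malat1 (0.49), Kcnq1ot1 (0.23) and Mirg (-0.24) in APOE4 against APOE3, for Mirg (0.31) in APOE2 against APOE4 and for Mirg (-0.22) in APOE4D against APOE3.

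Malat1 was at 378, 370.4, 383, 459 and 406 CPM in APOE4 mice, against 279, 299, 235, 325 and 285 CPM in APOE3 mice. Every APOE4 library stood above every APOE3 library, and the highest of all 20 was FH66 (APOE4) and the lowest F39N (APOE3). The log2 fold change was 0.49 (SE 0.10, 95% interval 0.28 to 0.71, edgeR adjusted p = 0.0040). The mean level was 399 ± 35.8 CPM in the APOE4 group, against 285 ± 32.9 CPM in the APOE3 group (SD, n = 5 each). The call held in each of 21 alternative settings, with values of 0.335 to 0.563, among them the fits without the FH mice (0.412) and without F61N (0.563). The call came closest to the threshold with 1 surrogate variable (0.514, SE 0.132, adjusted p = 0.0494).

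The other groups lay in between. Malat1 was at 293, 302, 379.9, 391 and 331 CPM in APOE2 mice (339 ± 44.7) and at 344, 444, 341, 288 and 306 CPM in APOE4D mice (345 ± 60.5). Both groups overlapped APOE4 as well as APOE3. The differences did not pass for APOE2 against APOE3 (0.26, 95% interval 0.04 to 0.48, adjusted p = 0.173), for APOE2 against APOE4 (-0.24, adjusted p = 0.210), for APOE4D against APOE4 (-0.21, 95% interval -0.46 to 0.04, adjusted p = 0.528) or for APOE4D against APOE3 (0.29, adjusted p = 0.152). In order of mean, APOE4 stood first, then APOE4D, APOE2 and APOE3, and APOE4D did not differ from APOE4, nor APOE2 from APOE3, beyond the test. APOE4D and APOE2 were not compared.

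Neat1, whose gene starts on the same chromosome 19 next to Malat1, was at 351, 382, 435, 374 and 381 CPM in APOE4 mice, against 403, 407, 396, 358 and 346 CPM in APOE3 mice. These groups overlapped nearly in full, with a log2 fold change of 0.02 (95% interval -0.09 to 0.12, adjusted p = 0.872). Neat1 was at 365 to 403 CPM in APOE2 mice and 355 to 455 CPM in APOE4D mice, and no comparison passed. The ratio of the Neat1 count to the Malat1 count within a library does not depend on library scaling. It was 114% ± 12.4 in APOE2, 118% ± 25.2 in APOE4D, 97.0% ± 11.98 in APOE4 and 136% ± 22.5 in APOE3 (SD, n = 5 each). The difference of APOE4 from APOE3 had an exact two-sided permutation p of 0.0159 and an adjusted p of 0.0595 over 15 ratio tests, and the groups overlapped. Without F61N the adjusted p was 0.0298.

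Other RNAs moved with the Malat1 difference between APOE4 and APOE3. Of 25 genes for paraspeckle proteins 11 were higher and 0 lower in APOE4 mice, where 10.8% of all genes were higher and 10.2% lower, with a median log2 fold change of 0.12. Among them were Tardbp, which encodes an RNA-binding protein (217 CPM in APOE4, against 178 in APOE3, log2 fold change 0.29, adjusted p = 8.3e-05), Nudt21 (0.32), a cleavage factor subunit, and Hnrnpr (0.25). Of 32 genes for nuclear speckle proteins 12 were higher and 3 lower (median 0.09), led by Srsf3 (0.27), Rbm25 (0.27) and Bclaf1 (0.26). Over all genes the median was -0.01. In APOE2 against APOE3 mice 1 paraspeckle protein gene was higher and 0 speckle protein genes were called by edgeR, where 1.84% of all genes were higher and 3.05% lower. At an unadjusted p under 0.05 were 4 paraspeckle and 6 speckle protein genes, as were 19.8% of all genes. In APOE2 against APOE4 mice 2 paraspeckle protein genes were lower, and 1 speckle protein gene was higher and 2 lower, where 3.29% of all genes were higher and 2.6% lower. In APOE4D against APOE4 mice 0 of both lists were called by edgeR, with 4 paraspeckle and 6 speckle protein genes at an unadjusted p under 0.05, as were 10.9% of all genes. In APOE4D against APOE3 mice 3 paraspeckle protein genes were higher, and 5 speckle protein genes were higher and 3 lower, where 3.92% of all genes were higher and 4.49% lower. Cytosolic ribosomal protein genes took 1.123% to 1.206% of counts in APOE4 and 1.22% to 1.52% in APOE3 libraries, and 54 of 79 were lower in APOE4. Blood markers summed to 73.0 to 120 CPM in APOE4 and 150 to 398 CPM in APOE3 mice, and oligodendrocyte precursor markers to 412 to 439 CPM in APOE4 and 374 to 431 CPM in APOE3 mice. Mean sums in APOE4 and APOE3 mice were 574 and 625 CPM for microglia, 301 and 338 for pericytes and fibroblasts, and 4966 and 5160 for astrocytes. They were 7811 and 8013 for oligodendrocytes, 757 and 861 for choroid plexus, 399 and 398 for endothelium, 52.7 and 47.7 for ependyma, and 14645 and 14626 for neurons. The part of these in the Malat1 difference was not tested.

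**Figure D3:**
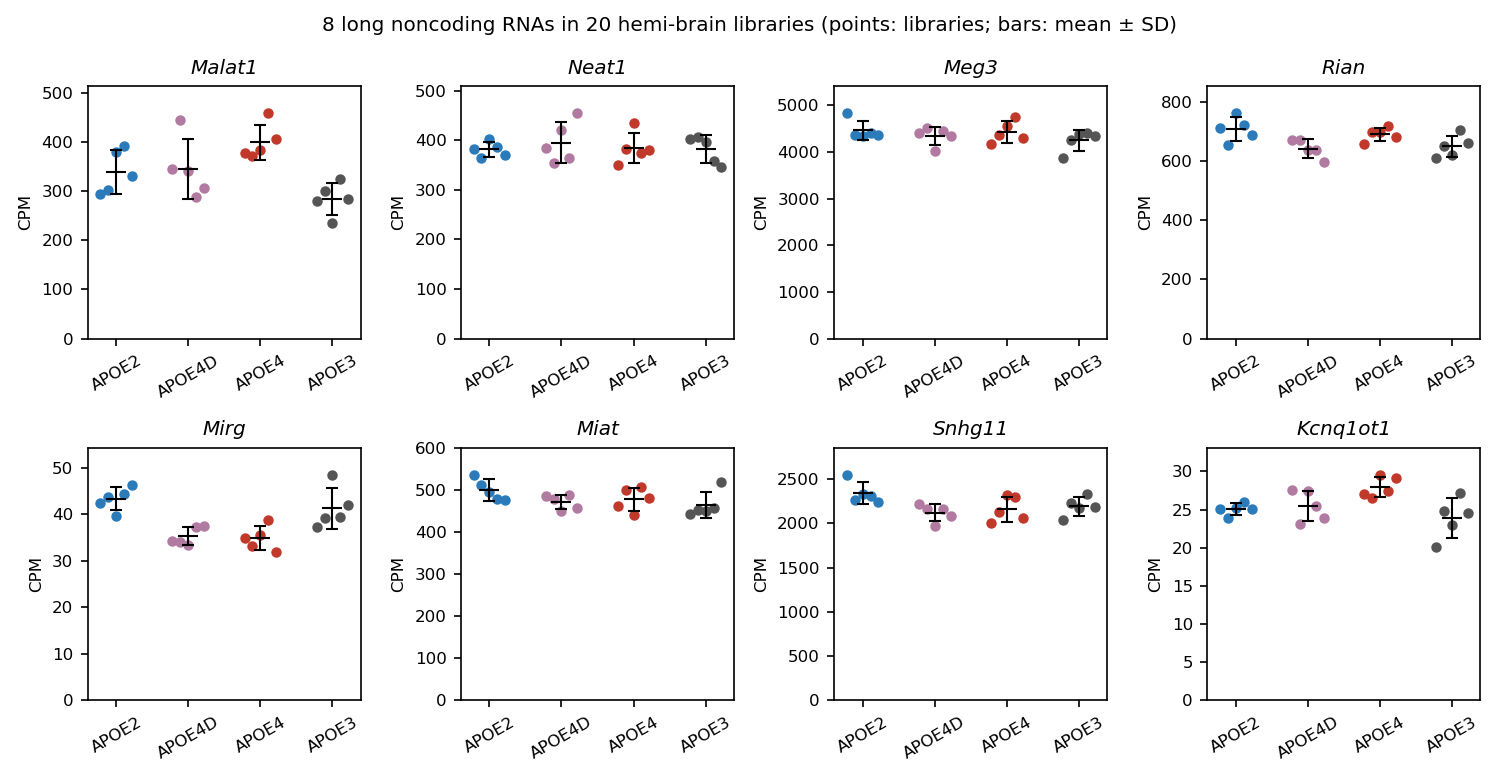
CPM of each lncRNA in each library (points) with the mean and SD of 5 libraries (bars), by group, on axes that start at 0. Malat1 does not overlap between APOE4 (370.4 to 459) and APOE3 (235 to 325), Mirg is low in APOE4D and APOE4, and Meg3 and Neat1 lie at like levels in all groups.

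In the Dlk1-Dio3 domain, Mirg passed the test in 3 comparisons and Meg3 and Rian in 0 (edgeR), where at an unadjusted p under 0.05 Rian passed in 3 and Meg3 in 0. Mirg was at 42.4, 43.8, 39.7, 44.3 and 46.4 CPM in APOE2 mice and at 34.4, 34.0, 33.5, 37.2 and 37.6 CPM in APOE4D mice. It was at 34.996, 33.2, 35.6, 38.8 and 31.9 CPM in APOE4 mice, against 37.3, 39.2, 48.6, 39.5 and 41.9 CPM in APOE3 mice. The APOE2 libraries all stood above the APOE4 libraries, whereas APOE4 overlapped APOE3 through FH66, and the highest of the 20 was F39N (APOE3).

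Set against APOE3, the APOE4 group had less Mirg (log2 fold change -0.24, SE 0.06, 95% interval -0.37 to -0.10, adjusted p = 0.01004), and APOE2 had more than APOE4 (0.31, SE 0.06, 95% interval 0.18 to 0.44, adjusted p = 0.0032). APOE4D had less than APOE3 (-0.22, SE 0.06, adjusted p = 0.0240). Mirg did not pass in APOE2 against APOE3 (0.07, 95% interval -0.05 to 0.20, adjusted p = 0.557) or in APOE4D against APOE4 (0.02, 95% interval -0.11 to 0.14, adjusted p = 0.949). With 1 surrogate variable in the fit none of these calls held (-0.13, 0.23 and -0.04). Without the FH mice the difference of APOE4 from APOE3 held (-0.25, adjusted p = 0.0448), and those of APOE2 from APOE4 (0.27, adjusted p = 0.0914) and of APOE4D from APOE3 (-0.27, adjusted p = 0.0835) did not. The call of APOE4 against APOE3 was lost without FH78 (-0.20, adjusted p = 0.0520). That of APOE4D against APOE3 was lost without F39N (-0.16), F12M (-0.20), F19M (-0.20) or FH51 (-0.21), with adjusted p of 0.0540 to 0.0890.

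Meg3 was at 4165 to 4755 CPM in APOE4 mice, against 3863 to 4416 CPM in APOE3 mice, and its log2 fold change was 0.06 (95% interval -0.02 to 0.15, adjusted p = 0.303). It was at 4345 to 4834 CPM in APOE2 and 4030.4 to 4507 CPM in APOE4D mice, and no comparison passed. Rian was at 658 to 718 CPM in APOE4 and 611 to 704 CPM in APOE3 mice (0.10, adjusted p = 0.128), and at 653 to 762 CPM in APOE2 mice (0.13 against APOE3, adjusted p = 0.0958). Without F61N, the highest APOE3 library for Rian, it passed in APOE4 against APOE3 (0.14, adjusted p = 0.0135) and in APOE2 against APOE3 (0.17, adjusted p = 0.0106), and leaving out the APOE2 library F42N also gave a call in APOE2 against APOE3 (0.16, adjusted p = 0.0454). APOE4D mice had 596 to 672 CPM of Rian (-0.11 against APOE4, adjusted p = 0.396).

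The count of Mirg relative to Meg3, which leaves library scaling out, separated APOE4 and APOE4D from APOE2 and APOE3. This ratio was not tested with a surrogate variable or with the length and GC trend removed. In APOE2 mice it was 0.877%, 1.003%, 0.914%, 1.005% and 1.06%, and in APOE4D mice 0.781%, 0.755%, 0.831%, 0.835% and 0.865%. It was 0.840%, 0.759%, 0.781%, 0.817% and 0.741% in APOE4 mice, against 0.964%, 0.921%, 1.10%, 0.894% and 0.965% in APOE3 mice. All APOE4 and APOE4D libraries stood below all APOE2 and APOE3 libraries. Sequencing depth fell along much the same line. Total counts were 32404258 to 37947330 in APOE4D and 33032138 to 46887242 in APOE4 libraries. They were 42723532 to 44852581 in APOE2 and 43051666 to 51960932 in APOE3 libraries. In APOE4, only FH66 exceeded the lowest APOE2 library. The part of depth in this ratio was not tested. The exact two-sided permutation p was 0.00794, the smallest that 5 against 5 can give, for APOE4 against APOE3 (log2 difference -0.30), APOE2 against APOE4 (0.30) and APOE4D against APOE3 (-0.25), with an adjusted p of 0.0397 each over 15 ratio tests. With 1 library left out the adjusted p was 0.0595 or 0.0794 in 12 of 30 such tests, so that none of the 3 calls held throughout. The groups compared did not overlap in any of these tests, and with so few libraries the exact test moves in coarse steps. Without the FH mice the differences were -0.287, 0.230 and -0.333, with an adjusted p of 0.268 to 0.3. Only 2 to 5 libraries a group were then left, with which the exact test can hardly pass, so that setting cannot decide. APOE2 and APOE3 (0.00, p = 1.0 by the exact permutation test) and APOE4D and APOE4 (0.05, p = 0.349 by the same test) overlapped. The ratio of Rian to Meg3 was 15.9% ± 1.15 in APOE2, 14.8% ± 0.799 in APOE4D, 15.6% ± 0.390 in APOE4 and 15.3% ± 0.727 in APOE3 (SD, n = 5 each), and no difference passed.

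**Figure D4:**
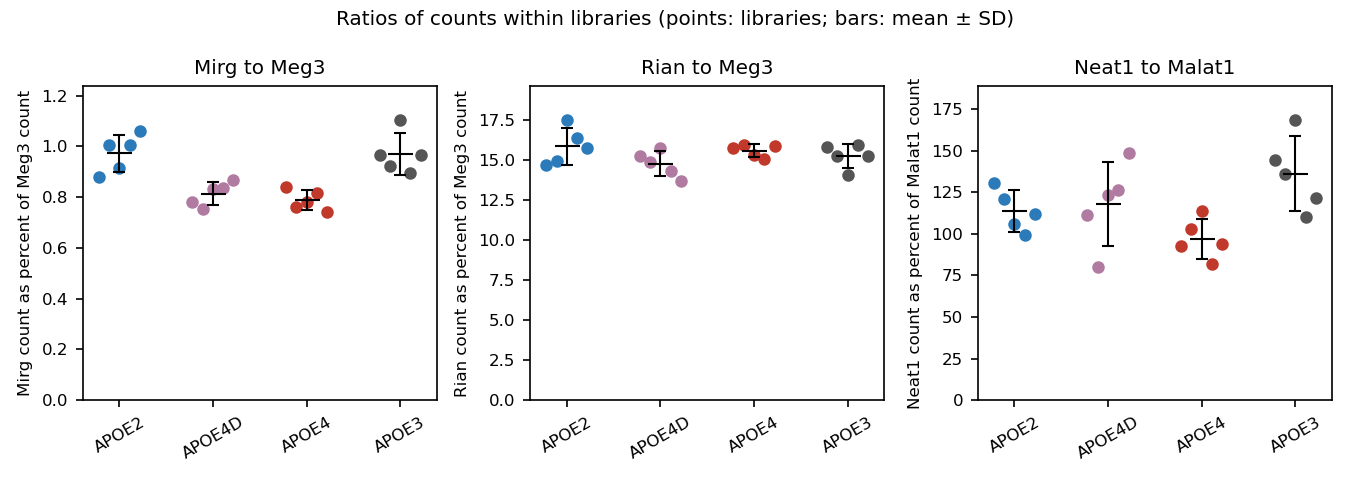
Counts of Mirg and of Rian as a percent of the count of Meg3, and of Neat1 as a percent of Malat1, in each library (points) with mean and SD (bars). For Mirg to Meg3, the 10 libraries of APOE4D and APOE4 lie between 0.741% and 0.865% and the 10 of APOE2 and APOE3 between 0.877% and 1.10%.

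Around them, from Begain to Dio3 (chr12:109032181-110281097), 92 genes of the table were annotated and 26 passed the filter. Of 6 protein genes of the domain, Begain, which encodes a synaptic scaffold-associated protein at the edge of the domain, was lower in APOE4 (124 CPM) and in APOE2 (130 CPM) than in APOE3 mice (156 CPM), with log2 fold changes of -0.32 and -0.26 and adjusted p of 2.9e-05 and 0.00053. Begain was also lower in APOE4D (130.5 CPM) than in APOE3 mice (-0.25, adjusted p = 0.00031), as was Dio3, an imprinted deiodinase gene named after its values were seen, with 1.95 CPM in APOE4D against 2.91 in APOE3 mice (-0.57, adjusted p = 0.0136). The paternally expressed Dlk1 (33.3 CPM in APOE4 and 30.6 in APOE3) and Rtl1 (1.35 CPM in both) did not pass. Of 40 further imprinted genes tested, 12 were higher and 3 lower in APOE4 than in APOE3 mice (median 0.08), against the same shares of all genes, 10.8% and 10.2%. Impact, a regulator of translation, was at 393 CPM in APOE4 and 334 in APOE3 mice (0.24), and Snhg14, the antisense transcript of Ube3a that is also on the lncRNA list, at 67.4 CPM in APOE4 and 54.0 in APOE3 mice (0.33). The splicing factor gene Zrsr1 was at 77.7 CPM in APOE2 and 67.6 in APOE4 mice (0.20).

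Kcnq1ot1 was at 27.1, 26.5, 29.6, 27.4 and 29.1 CPM in APOE4 mice, against 20.1, 24.9, 23.0, 27.2 and 24.5 CPM in APOE3 mice. The log2 fold change was 0.23 (SE 0.06, 95% interval 0.10 to 0.36, adjusted p = 0.0105), and the groups overlapped only through the APOE3 library F61N. Without F61N the log2 fold change was 0.297 (adjusted p = 0.000464). The call was lost with 1 surrogate variable (0.19, adjusted p = 0.190) and without the FH mice (0.22, adjusted p = 0.0996). In APOE2 mice Kcnq1ot1 was at 25.1, 23.9, 25.2, 26.0 and 25.1 CPM, below every APOE4 library, but the difference did not pass (-0.16, 95% interval -0.29 to -0.03, adjusted p = 0.147). APOE4D mice had 27.5, 23.1, 27.4, 25.5 and 23.9 CPM, overlapping APOE4 and APOE3 (-0.13 and 0.10).

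Of 14 other genes of the Kcnq1 domain tested, 6 were lower and 1 higher in APOE4 than in APOE3 mice, where 10.2% of all genes were lower and 10.8% higher, with a median log2 fold change of -0.17. Cdkn1c, a cell cycle inhibitor gene that Kcnq1ot1 is known to silence on the paternal chromosome, was at 9.03 CPM in APOE4 mice, against 11.5 in APOE3 mice (-0.35, adjusted p = 0.0068). Osbpl5 was at 27.8 CPM in APOE4 and 33.3 in APOE3 mice (-0.25), and Cars, the cysteinyl-tRNA synthetase gene, was higher with 43.4 CPM in APOE4 and 37.4 in APOE3 mice (0.22). Kcnq1 itself was low, with 0.457 CPM in APOE4 mice against 0.686 in APOE3 mice, and did not pass (adjusted p = 0.160). The counts are not split by allele, and the part of Kcnq1ot1 in the differences of these genes was not tested. In APOE2 against APOE3 mice 0 of the 14 were called by edgeR, where 1.84% of all genes were higher and 3.05% lower. At an unadjusted p under 0.05 were 2 of the 14 and 19.8% of all genes. In APOE2 against APOE4 mice 1 was higher and 1 lower, where 3.29% of all genes were higher and 2.6% lower. In APOE4D against APOE4 mice 0 of the 14 and 0% of all genes were called by edgeR. There 1 of the 14 had an unadjusted p under 0.05, as did 10.9% of all genes. In APOE4D against APOE3 mice 1 was higher, where 3.92% of all genes were higher and 4.49% lower. There 7 of the 14 had an unadjusted p under 0.05, against 23.8% of all genes.

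Miat and Snhg11 passed in no comparison. Miat was at 441 to 506 CPM in APOE4 mice, against 443 to 518 CPM in APOE3 mice (0.05, 95% interval -0.05 to 0.14). It was at 476 to 537 CPM in APOE2 mice (0.11 against APOE3, adjusted p = 0.174), and this passed without the APOE3 library F64M (0.16, adjusted p = 0.0344). Snhg11 was at 2007 to 2328 CPM in APOE4 mice, against 2043 to 2339 CPM in APOE3 mice (-0.02, 95% interval -0.11 to 0.08). In APOE2 mice it was at 2242 to 2554 CPM, with log2 fold changes of 0.10 against APOE3 (adjusted p = 0.241) and 0.11 against APOE4 (adjusted p = 0.163). APOE4D mice had 449.8 to 488 CPM of Miat and 1977 to 2220.1 CPM of Snhg11. Of 53 other lncRNAs tested, 10 were higher and 11 lower in APOE4 than in APOE3 mice (10.8% and 10.2% of all genes), among them Dlx6os1 (18.9 CPM in APOE4 and 12.2 in APOE3, 0.64) and Snhg8 (18.3 CPM in APOE4 and 24.7 in APOE3, -0.43). Snhg12 had 21.9 CPM in APOE2, against 27.6 in APOE3 mice (-0.33, adjusted p = 0.00081).

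Among libraries of 1 group, some of the 8 rose and fell together. Group means were removed from log2 CPM, and 28 pairs were compared over 20 libraries with 100000 permutations within groups. Of these, 4 pairs passed for both coefficients, adjusted over the 28. Meg3 and Snhg11, on different chromosomes, had r = 0.89 and rho = 0.89 (permutation p = 3e-05 and 6e-05, adjusted 0.00084 and 0.0017), and r = 0.855 without the 2 libraries farthest from the Meg3 median, F10N and F35J. Malat1 and Rian had r = 0.68 and rho = 0.68 (permutation p = 0.0047 and 0.0044, adjusted 0.0441 and 0.0344), and r = 0.645 without F39N and FH66. Rian and Snhg11 had r = 0.615 and rho = 0.636 (permutation p = 0.0064 and 0.0046, adjusted 0.0449 and 0.0344), and r = 0.67 without F74M and FH85.

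Neat1 and Miat ran opposite, with r = -0.63 and rho = -0.63 (permutation p = 0.0040 and 0.0049, adjusted 0.0441 and 0.0344), and r = -0.505 without F95K and FH85. Malat1 and Neat1, though neighbours, had r = -0.195 and rho = -0.12 (permutation p = 0.5 and 0.659, adjusted 0.737 and 0.802). Within the Dlk1-Dio3 domain, Meg3 with Rian (r = 0.47, permutation p = 0.0603, adjusted 0.246) and Meg3 with Mirg (r = 0.45, permutation p = 0.105, adjusted 0.327) did not pass. All members of a pair are read from the same library, so depth, tissue composition and RNA preparation are shared by both axes.

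**Figure D5:**
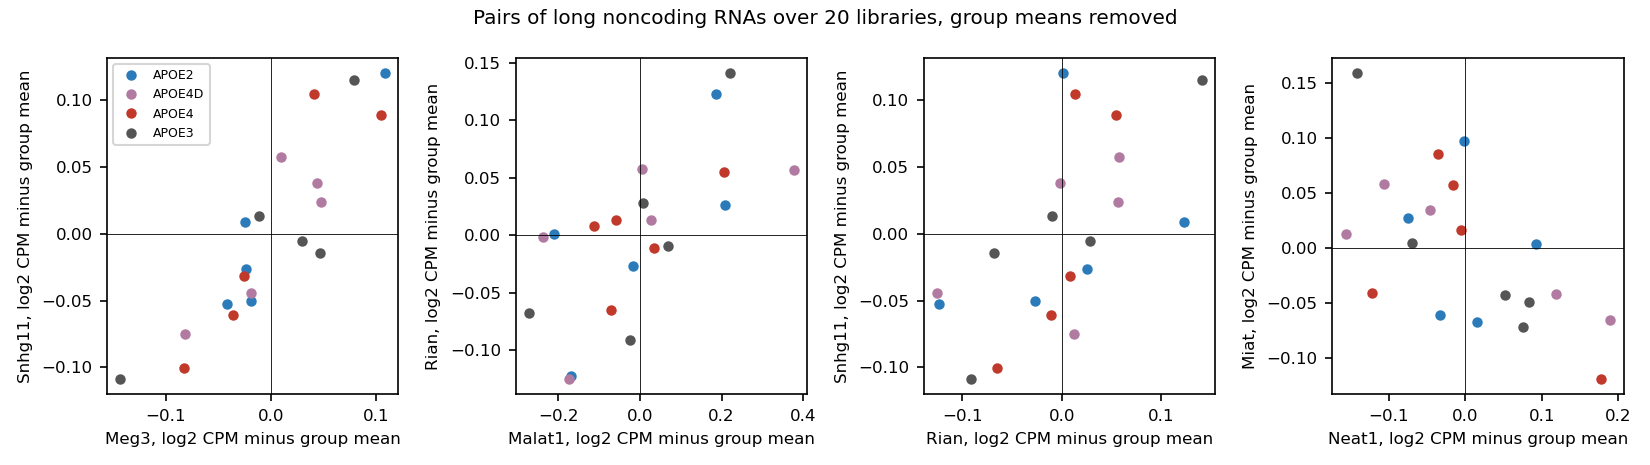
Log2 CPM minus the group mean for the 4 pairs that passed, 1 point per library, coloured by group. Points rise together for Meg3 and Snhg11 (r = 0.89), Malat1 and Rian (r = 0.68) and Rian and Snhg11 (r = 0.615), and run opposite for Neat1 and Miat (r = -0.63).

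Among 11270 other genes whose log2 CPM averaged 3 or more, those most like each lncRNA over the 20 libraries, by Pearson's r of log2 CPM with group differences left in, are given as a description. Malat1 was most like Dhx9, an RNA helicase gene (r = 0.92), Kmt2c (0.91) and Osbpl6 (0.91). Snhg11 was most like A230057D06Rik, a lncRNA (0.92), then Lin28b (0.75) and Maob (0.75), and Meg3 most like Gprasp2 (0.80), Lin28b (0.77) and Zfp318 (0.76). Rian was most like Wsb1 (0.87), the potassium channel gene Kcnc2 (0.87) and Paxbp1 (0.86), and Mirg most like Spag5 (0.87), the respiratory chain gene Cox7a2 (0.87) and Lypd1 (0.87). Kcnq1ot1 was most like the Polycomb gene Pcgf5 (0.87), Gmps (0.86) and Retreg1 (0.86), and Miat most like Srrm2, a nuclear speckle protein gene (0.83), Ccdc159 (0.80) and Tenm2 (0.79). The values for Neat1 were the lowest, with Fbxo7 (0.73), the lncRNA E530011L22Rik (0.67) and St3gal6 (0.60).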

How the data were processed

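Counts of poly(A) RNA from 20 hemi-brains at 18 MO were used. Per the deposited table and the submitters' processing notes, the authors trimmed reads with Trimmomatic, aligned them with STAR 2.7.0 to GRCm38 (mm10) and made raw counts per gene symbol with featureCounts. No source used here says whether counting used strand. Normalized counts and the authors' DESeq2 comparison tables (fold changes and p-values) were deposited too and were not used. Samples were grouped by their labels, and 12 MO mice were not analysed here.

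Counts were tested in R 4.3.3 with edgeR 4.0.16 (quasi-likelihood, robust, TMM scaling), keeping genes above 0.1 CPM in over 40% of libraries, with Benjamini-Hochberg adjustment over all genes and a threshold of 0.05. APOE2, APOE3 and APOE4 shared a fit of 15 libraries (21022 genes), and APOE4D was tested in a fit of 20 (21041 genes). CPM are counts scaled to an equal library total, and SEs are on the log2 scale. Intervals at 95% come from the fit. Ratios were compared by exact permutation tests. Lengths came from GENCODE vM39. The 8 lncRNAs, the gene lists and the alternatives were chosen with earlier results of these data known. From each list that is not of a cell type, the text names up to 3 genes with the smallest p among those past the threshold in the genotype comparisons. Alternatives were no filter, RLE factors, library totals, DESeq2 1.42.0, limma-voom (limma 3.58.1), only the groups compared, 1 surrogate variable (sva 3.50.0), offsets that remove each library's loess trend (span 0.3) on length and GC, APOE4 and APOE4D joined, mice or libraries left out, and for the ratios 0.5 added to each count. The fits were also run on simulated counts with the same spread for all genes and no hidden factor across libraries. That run cannot show how the fits behave where such a factor is present. Ratios, relations and figures used Python 3.11.15 (matplotlib 3.10.9).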

Additional observations from a re-analysis of the deposited data

Results flagged for a closer look

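Of 44 groups of 5 libraries tested for a library that stands apart from its group (a gap over 0.710 of the range), 3 did so, where chance alone marks about 1 in 20. The APOE2 mouse F35J had 4833.7 CPM of Meg3, and the other APOE2 mice had 4344.8 to 4410.9. The same mouse had 2554.1 CPM of Snhg11, and the other APOE2 mice had 2242 to 2331.3. The APOE3 mouse F64M had 517.99 CPM of Miat, and the other APOE3 mice had 442.65 to 457.64.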

How the results depend on the processing

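The number of lncRNAs called in APOE4 against APOE3 (3) became 1 with 1 surrogate variable and was 2 to 4 with 1 library left out, and Meg3 was also called with the length and GC trend removed (0.215, adjusted p = 0.0146). In APOE2 against APOE3 (0) it became 1 with DESeq2 and without both F61N and the APOE2 mouse FH111, and was 0 to 1 with 1 library left out. In APOE2 against APOE4 (1) it became 2 with only the groups compared (Kcnq1ot1), with the trend removed or with APOE4 and APOE4D joined (Snhg11), and 0 with 1 surrogate variable or without the FH mice. In APOE4D against APOE3 (1) it became 0 with 1 surrogate variable or without the FH mice, and was 0 to 1 with 1 library left out. Over all genes, 4422 were called in APOE4 against APOE3, against 901 with 1 surrogate variable, 1403 without the FH mice (623 higher and 780 lower, where all mice gave 2273 higher and 2149 lower) and 2150 with the trend removed. More were called without F61N (5739, with 3206 higher and 2533 lower) and without F61N and FH111 (5792). In APOE2 against APOE3 1029 were called, against 2032 without F61N and FH111 and 2533 without F61N alone, and fewer with only the groups compared (637) or without F10N (569) or F74M (639). In APOE2 against APOE4 1238 were called, against 432 with 1 surrogate variable, 537 without the FH mice (fewer higher than lower, with 285 lower, where all mice gave 692 higher and 546 lower), 733 without FH78, 749 without F42N and 798 without FH66, and 1889 with only the groups compared. In APOE4D against APOE3 1769 were called, against 49 with 1 surrogate variable, 464 without the FH mice (158 higher and 306 lower), 1088 without F39N, 1053 without F10N, 1022 without F12M and 3406 without F61N and FH111 (3338 without F61N alone). In APOE4D against APOE4 0 were called, against 10 with no filter, 34 with DESeq2, 210 with only the groups compared and 1 without FH78, FH68 or F19M. The causes were not tested.

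The Mirg to Meg3 difference without the FH mice (2 to 5 libraries a group) was -0.287 in APOE4 against APOE3, 0.230 in APOE2 against APOE4 and -0.333 in APOE4D against APOE3, with adjusted p of 0.268, 0.3 and 0.268. With 1 library left out these were -0.326 to -0.250, 0.269 to 0.337 and -0.280 to -0.204, and the adjusted p was 0.0595 or 0.0794 in 12 of 30 such fits, those without F39N, F95K, F78N, FH78, FH66, F12M or F19M. Without mitochondrially encoded genes in the total, the 8 lncRNAs took 0.941% in APOE2, 0.898% in APOE4D, 0.921% in APOE4 and 0.885% in APOE3.

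Signs turned only for differences that were not called. Neat1 in APOE2 against APOE3 was -7.35e-05 with no filter, -0.00159 with library totals, -0.130 with the trend removed and -0.0191 without F61N and FH111. With the trend removed Neat1 was also -0.176 in APOE4 against APOE3, 0.0456 in APOE2 against APOE4 and -0.0773 in APOE4D against APOE3, Meg3 was -0.0422 in APOE2 against APOE4 and Snhg11 0.0258 in APOE4D against APOE4. With 1 surrogate variable Meg3 was -0.0222 in APOE2 against APOE4, Miat 0.000246 in APOE4D against APOE4 and Kcnq1ot1 -0.0145 in APOE4D against APOE3. Without the FH mice, APOE4D against APOE4 gave 0.0596 for Malat1, -0.0807 for Neat1, 0.0238 for Meg3, -0.0225 for Mirg, 0.0381 for Miat, 0.0216 for Snhg11, -0.124 for Neat1 to Malat1 and -0.0462 for Mirg to Meg3, APOE4D against APOE3 gave -0.0479 for Neat1 and 0.0482 for Rian, and the ratios Rian to Meg3 in APOE2 against APOE4 and Mirg to Meg3 in APOE2 against APOE3 were -0.000802 and -0.0566. Without F61N and FH111 Neat1 was -0.00248 and Snhg11 0.0141 in APOE4 against APOE3, and Rian 0.0216 in APOE4D against APOE3. With 1 library left out, Neat1 ranged over -0.0326 to 0.0536 in APOE4 against APOE3, -0.0234 to 0.0302 in APOE2 against APOE3, -0.0465 to 0.0362 in APOE2 against APOE4, -0.0111 to 0.0926 in APOE4D against APOE4 and -7.88e-05 to 0.0996 in APOE4D against APOE3. Meg3 ranged over -0.0198 to 0.0351 in APOE2 against APOE4, Snhg11 over -0.0431 to 0.0243 in APOE4 against APOE3 and -0.048 to 0.00414 in APOE4D against APOE4, Rian over -0.0299 to 0.0306 in APOE4D against APOE3, and in APOE4D against APOE4 Mirg over -0.0144 to 0.0581 and Miat over -0.0431 to 0.000656. The ratio of Mirg to Meg3 ranged over -0.0287 to 0.0514 in APOE2 against APOE3, and that of Rian to Meg3 over -0.0161 to 0.0476 in APOE2 against APOE4. No paired analysis was possible because the labels give no replicate numbers that groups share.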
